A study of Mus musculus with 28 samples.

Results

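The genes described here were 10 regulators and markers of the mesoderm and endoderm lineages, T, Mixl1, Gsc, Foxa2, Sox17, Sox7, Gata4, Gata6, Pdgfra and Dab2. They were chosen by name and found by symbol among the 37991 genes counted by RNA-seq in mouse embryonic stem (ES) cells. All 10 were among the 20321 genes with at least 16 reads over the 16 RNA libraries, and these 20321 genes were tested. The study knocked down KAP1 (TRIM28), a corepressor that zinc finger proteins bring to DNA, in ES cells that were wild type (WT) or lacked the enzymes that write or oxidise DNA methylation. The 6 RNA groups were WT, DNMT TKO (Dnmt1, Dnmt3a and Dnmt3b knocked out) and TET TKO (Tet1, Tet2 and Tet3 knocked out) cells, each with an empty hairpin vector (shEmpty) or a hairpin against Kap1 (shKap1). WT and DNMT TKO had 3 libraries per hairpin and TET TKO had 2. The labels give all cells as J1 of strain 129S4/SvJae, while the study's methods say that the DNMT TKO and TET TKO lines came from different laboratories, so a shared background rests on the labels alone. All groups shared the lentiviral vector, selection with puromycin at 4 µg/mL, culture in N2B27 medium with LIF and the inhibitors PD0325901 (1 µM) and CHIR99021 (3 µM), and collection after 5 days. Each genotype was 1 cell line, so genotype and line cannot be told apart. H3K4me3 and H3K27me3 were mapped by ChIP-seq in WT cells, with 2 replicates per mark, and 5-hydroxymethylcytosine (5hmC) by immunoprecipitation of WT DNA under each hairpin.

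T (Brachyury), Mixl1, Gsc (Goosecoid) and Foxa2 are transcription factors of the primitive streak and of the mesendoderm that it gives rise to. Gata6, Gata4, Sox17 and Sox7 form the transcription factor cascade of primitive endoderm, the extraembryonic lineage that separates from the epiblast in the blastocyst, while Pdgfra is a receptor tyrosine kinase on its surface and Dab2 an endocytic adaptor that its cells use. In ES cells, which stand for the epiblast, such lineage genes are transcribed at low levels, and the starts of many carry H3K4me3, the mark of active or poised promoters, together with H3K27me3, the mark of Polycomb repression, a state known as bivalent.

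The promoters of T, Gsc and Dab2 are shown because these were the 3 genes whose knockdown effect passed the test of a difference between DNMT TKO and WT, and because the Dab2 pair differs in both CpG content and marks. The sequences are from RefSeq (GRCm38.p6), run from 250 bases before to 50 after a transcript start in the direction of transcription, and each matched 1 place in mm9, the build of the files. Each CG pair, the site of DNA methylation in mammals, is in capitals. The letters CG, which read the same on both strands, were counted in all 32851 promoters of this length, whose median was 7. The T promoter (chr17:8627038-8627337, forward strand) held 17 CG pairs, and 31.4% of promoters held at least as many. The Gsc promoter (chr12:105711397-105711696, reverse strand) held 25, a count reached by 18.4%. The first Dab2 promoter (chr15:6249539-6249838, forward strand), at the annotated gene start, held 2, a count reached by 85.9%. The other Dab2 promoter (chr15:6336498-6336797, forward strand), whose start lies 86960 bases inside the gene, held 19, a count reached by 28.1%.
T: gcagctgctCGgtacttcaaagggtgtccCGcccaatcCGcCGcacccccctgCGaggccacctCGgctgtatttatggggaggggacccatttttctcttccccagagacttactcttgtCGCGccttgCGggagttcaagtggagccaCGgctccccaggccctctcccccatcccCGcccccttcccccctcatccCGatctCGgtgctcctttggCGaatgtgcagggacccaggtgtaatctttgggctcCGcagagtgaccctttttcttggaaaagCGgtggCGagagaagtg
Gsc: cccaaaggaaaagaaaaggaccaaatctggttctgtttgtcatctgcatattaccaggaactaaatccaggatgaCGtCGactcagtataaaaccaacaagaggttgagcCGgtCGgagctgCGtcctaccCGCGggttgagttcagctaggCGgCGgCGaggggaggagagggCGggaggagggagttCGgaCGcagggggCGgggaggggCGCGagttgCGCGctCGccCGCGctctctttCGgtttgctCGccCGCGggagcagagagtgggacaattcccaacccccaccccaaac
Dab2 at the gene start: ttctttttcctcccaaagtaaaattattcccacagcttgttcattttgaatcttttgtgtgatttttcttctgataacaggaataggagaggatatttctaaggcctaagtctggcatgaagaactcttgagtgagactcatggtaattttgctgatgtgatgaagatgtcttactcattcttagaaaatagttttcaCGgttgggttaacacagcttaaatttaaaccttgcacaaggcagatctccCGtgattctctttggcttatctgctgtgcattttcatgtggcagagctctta
Dab2 at the inner start: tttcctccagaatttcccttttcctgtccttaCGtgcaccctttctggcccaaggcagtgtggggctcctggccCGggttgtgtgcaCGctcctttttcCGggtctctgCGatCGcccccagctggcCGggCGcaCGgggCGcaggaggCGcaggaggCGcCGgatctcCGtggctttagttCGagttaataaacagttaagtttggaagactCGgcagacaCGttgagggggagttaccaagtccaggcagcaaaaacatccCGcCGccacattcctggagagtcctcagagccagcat
RefSeq promoters were matched for 5 of the 10 genes, the others being Foxa2 with 3 promoters of 12, 23 and 13 CG pairs and Pdgfra with 1 promoter of 5. No entry was matched for Mixl1, Sox17, Sox7 and Gata4, and Gata6 was set aside before the matching.

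Sequencing gave 18108431 to 29373696 reads on genes per library. Trim28, which encodes KAP1, went from 1752.4 ± 207 CPM (counts scaled to a common TMM library size, SD, n = 3) to 165 ± 21.9 under the hairpin in WT cells, from 1868.6 ± 197 to 427 ± 91.5 in DNMT TKO (n = 3) and from 1835 ± 89.8 to 166 ± 3.84 in TET TKO (n = 2). Reads of Dnmt1, Dnmt3a and Dnmt3b in DNMT TKO and of Tet1 and Tet2 in TET TKO were below WT, whereas Tet3 was at 13.8 ± 0.667 CPM in TET TKO (n = 2) against 13.9 ± 2.86 in WT (n = 3) with shEmpty. The ES cell genes Pou5f1, Nanog and Sox2 were expressed in every group, and the summed level of the 9 pluripotency genes measured went from 3944.5 to 4179.7 CPM under shEmpty to 2539.9 to 2704.4 under shKap1 in WT. In WT and DNMT TKO, replicate 1 stood apart from the other two replicates in each group (11.1 to 15.3 chi-square units per gene against 1.81 to 5.97 between replicates 2 and 3), and the 2 TET TKO shEmpty libraries differed by 45.6. The study's methods give the WT and DNMT TKO RNA replicates as coming from separate experiments, and p-values measure the spread between these samples.

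**Figure D1:**
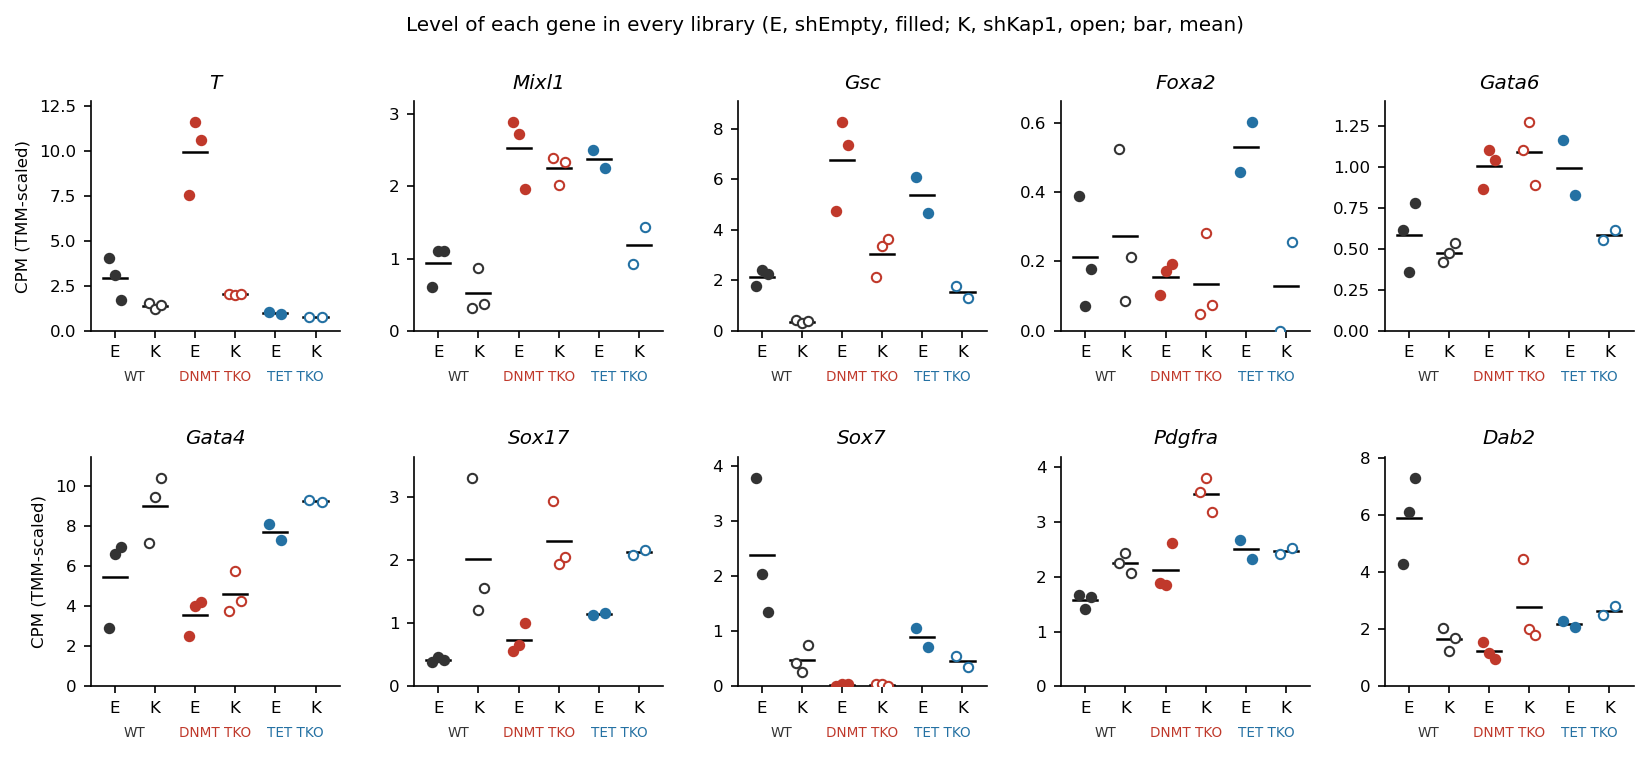
Level of the 10 genes in each of the 16 RNA libraries, as CPM scaled by TMM library factors (y axis, linear), by genotype and hairpin (E, shEmpty, filled; K, shKap1, open), with the group mean as a bar. T is highest in the DNMT TKO shEmpty libraries at 7.57 to 11.6 CPM, Sox7 has at most 1 read in any DNMT TKO library, and Dab2 has its highest group mean in WT shEmpty (4.28 to 7.32 CPM), whose lowest library is below DNMT TKO shKap1 replicate 1 at 4.47.

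All 10 genes were expressed at low levels in WT cells. In CPM per kb of exon (RPKM), the order in WT shEmpty cells was Gsc at 1.69 ± 0.261, Gata4 at 1.40 ± 0.576, T at 1.27 ± 0.512, Dab2 at 0.804 ± 0.209, Sox7 at 0.723 ± 0.38, Mixl1 at 0.408 ± 0.123, Pdgfra at 0.233 ± 0.0194, Gata6 at 0.182 ± 0.0666, Sox17 at 0.135 ± 0.0117 and Foxa2 at 0.0896 ± 0.0682 (SD, n = 3). Neighbours in this order differed by less than the larger of their SDs, except Mixl1 and Pdgfra. Of the genes tested, 44.4% lay below Gsc and 16.7% below Foxa2 on this scale. In DNMT TKO shEmpty cells Gsc (5.36 ± 1.45) and T (4.29 ± 0.905) led and Sox7 was last at 0.00739 ± 0.00643. There 59.5% of the genes tested lay below Gsc and 56.1% below T. In TET TKO shEmpty cells Gsc led at 4.25 ± 0.806, above 55.6% of the genes tested, and T was at rank 4 with 0.424 ± 0.0255 (n = 2). In these bulk samples, fewer cells of a type and less RNA per cell cannot be told apart.

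Under KAP1 knockdown in WT cells, 1 of the 10 genes rose (Sox17) and 4 fell (T, Gsc, Sox7 and Dab2), where 10.8% of all genes tested rose and 6.54% fell. A gene was said to rise or fall where its adjusted p was below 0.05 in edgeR's quasi-likelihood test and its change at least 2-fold. In DNMT TKO cells 2 rose (Sox17 and Dab2) and 2 fell (T and Gsc), where 10.1% of all genes rose and 2.42% fell. In TET TKO cells none rose by edgeR, limma-voom or DESeq2 and 1 (Sox17) had an unadjusted p under 0.05 with a higher level, while 2 fell (Mixl1 and Gsc), where 8.05% of all genes rose and 4.46% fell. The median log2 change of the 10 genes was -0.56 in WT, 0.10 in DNMT TKO and -0.55 in TET TKO, beside -0.01, 0.02 and -0.01 over all genes tested. Gsc was the 1 gene that fell in all 3 genotypes.

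**Figure D2:**
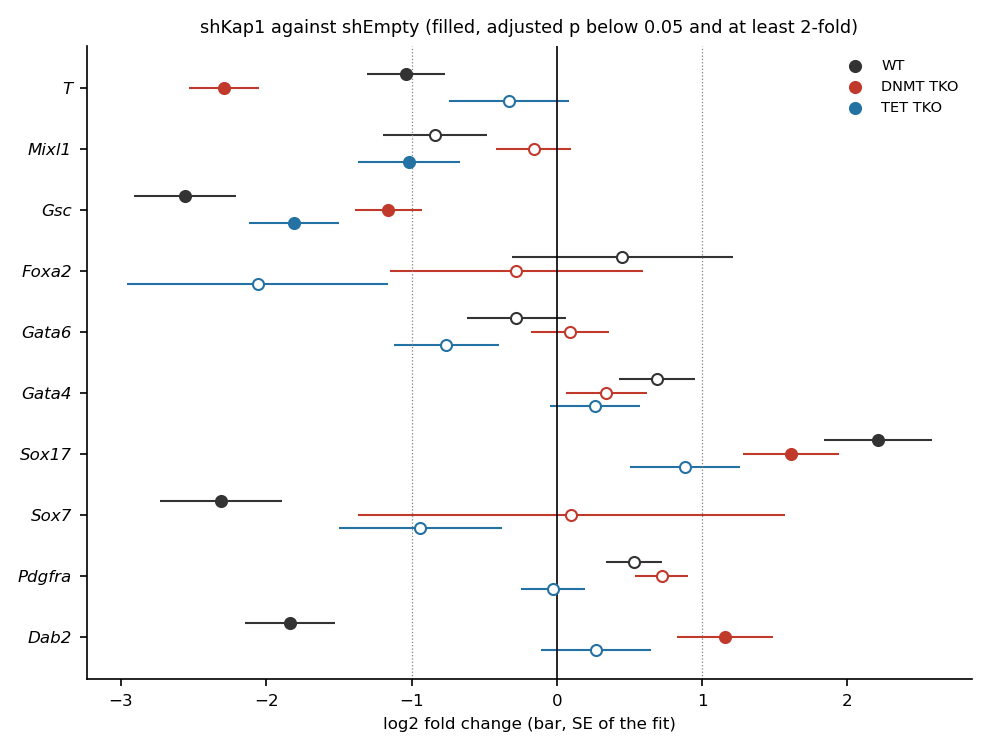
Log2 fold change of each gene on KAP1 knockdown (x axis, shKap1 against shEmpty; dotted lines at 2-fold) in WT, DNMT TKO and TET TKO, with the SE of the edgeR fit as a bar and filled points for an adjusted p below 0.05 with at least a 2-fold change. Gsc is below the 2-fold line in all 3 genotypes, while Dab2 is at -1.84 in WT and 1.16 in DNMT TKO.

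Gsc (ENSMUSG00000021095, mm9 chromosome 12, 105709419 to 105711537, reverse strand), a homeobox repressor of the gastrula organizer, had 32, 68 and 63 reads in the WT shEmpty libraries in replicate order and 8, 7 and 7 under shKap1. In DNMT TKO the counts were 93, 239 and 191 against 44, 71 and 98, and in TET TKO 173 and 124 against 38 and 25. In each genotype, every shKap1 library was below every shEmpty library in CPM. Gsc fell 5.9-fold in WT (log2 -2.56, SE 0.35, adjusted p = 8.4e-06), by 1.16 on the log2 scale in DNMT TKO (SE 0.23, adjusted p = 0.00062) and by 1.81 in TET TKO (SE 0.31, adjusted p = 0.00019). The DNMT TKO value was -1.0 without shEmpty replicate 2 and -0.97 without shKap1 replicate 1, no longer a 2-fold change.

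T (ENSMUSG00000062327, chromosome 17, 8627288 to 8635361, forward strand), the T-box factor of nascent mesoderm, had 73, 87 and 48 reads in the WT shEmpty libraries and 30, 28 and 27 under shKap1. In DNMT TKO there were 149, 335 and 276 reads under shEmpty and 43, 42 and 55 under shKap1. The 3 DNMT TKO shKap1 libraries lay at 1.98 to 2.07 CPM, within the range of the WT shEmpty libraries (1.70 to 4.05). T fell by 1.04 on the log2 scale in WT (SE 0.27, adjusted p = 0.0043) and by 2.29 in DNMT TKO (SE 0.24, adjusted p = 9.5e-07). The WT fall was near the 2-fold limit and was under it with limma-voom (-0.92) and without WT shEmpty replicate 1 (-0.77), shEmpty replicate 2 (-0.99) or shKap1 replicate 2 (-0.93). In TET TKO, where T was low with both hairpins (29 and 25 reads against 17 and 15), the log2 difference was -0.33 (SE 0.41, adjusted p = 0.6).

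Mixl1 (ENSMUSG00000026497, chromosome 1, 182623174 to 182627165, reverse strand), a homeobox factor of the primitive streak, had 71 and 60 reads in TET TKO shEmpty and 20 and 28 in shKap1. It fell there by 1.02 on the log2 scale (SE 0.35, adjusted p = 0.035), a value at the 2-fold limit that was -1.0 by DESeq2 and between -1.07 and -0.71, with an adjusted p above 0.05, without TET TKO shEmpty replicate 1 or 2 or shKap1 replicate 1. The WT libraries overlapped, with 11, 31 and 31 reads against 6, 20 and 7 (log2 -0.84, SE 0.36, adjusted p = 0.065). The WT value passed without WT shEmpty replicate 1 (-1.03) and without shKap1 replicate 2 (-1.46). In DNMT TKO the libraries also overlapped, at 57, 79 and 51 reads against 50, 43 and 63 (log2 -0.16, SE 0.26, adjusted p = 0.69).

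Foxa2 (ENSMUSG00000037025, chromosome 2, 147868613 to 147872705, reverse strand), a pioneer factor of definitive endoderm and node, had 85 reads over the 16 libraries. It had 7, 2 and 5 reads in WT shEmpty and 10, 2 and 4 in WT shKap1, and 2, 5 and 5 against 1, 6 and 2 in DNMT TKO. The highest counts were 13 and 16 in TET TKO shEmpty, with 0 and 5 under shKap1 (log2 -2.06, SE 0.90, adjusted p = 0.095). No difference in Foxa2 passed the test. The TET TKO difference passed with limma-voom (-2.79), in a fit of those 2 groups alone (-2.03) and without TET TKO shKap1 replicate 2, and the direction in WT and DNMT TKO turned with 1 library left out. In sum over the 4 mesendoderm genes, the level was 5.2 to 6.83 CPM in WT shEmpty and 2.4 to 2.83 in shKap1. It was 15.3 to 22.7 and 6.63 to 8.08 in DNMT TKO, and 8.45 to 10.1 and 3.47 to 3.75 in TET TKO. The summed levels did not overlap between hairpins in any genotype. They rested mainly on T and Gsc in WT and DNMT TKO, and on Gsc and Mixl1 in TET TKO. In DNMT TKO the group means of T were 9.93 and 2.03 CPM and those of Gsc 6.78 and 3.03. Those of Mixl1 were 2.53 and 2.25 there, and those of Foxa2 0.156 and 0.135.

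Among the primitive endoderm genes, Sox17 (ENSMUSG00000025902, chromosome 1, 4481009 to 4486494, reverse strand), an SRY-related endoderm factor, had 7, 13 and 12 reads in WT shEmpty and 63, 28 and 29 in WT shKap1. In DNMT TKO the counts were 11, 19 and 26 against 61, 41 and 55. Every shKap1 library was above every shEmpty library in both genotypes, and replicate 1 was the highest of each shKap1 group. Sox17 rose 4.62-fold in WT (log2 2.21, SE 0.37, adjusted p = 9.4e-05) and by 1.61 on the log2 scale in DNMT TKO (SE 0.33, adjusted p = 0.00099). Without WT shKap1 replicate 1 the WT value was 1.68. In TET TKO it had 32 and 31 reads with shEmpty and 45 and 42 with shKap1, and the difference of 0.88 (SE 0.38, adjusted p = 0.095) missed the threshold.

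Sox7 (ENSMUSG00000063060, chromosome 14, 64562511 to 64569569, forward strand), a relative of Sox17 that is also used in endothelium, went the other way in WT cells, from 68, 57 and 38 reads to 8, 6 and 14. It fell by 2.31 on the log2 scale (SE 0.42, adjusted p = 0.00022), with no overlap between the libraries. In DNMT TKO it was close to absent with either hairpin, at 0, 1 and 1 reads under shEmpty and 1, 1 and 0 under shKap1, a ratio of shEmpty to shKap1 of 0.926 with a 95% counting interval of 0.0671 to 12.8, so no knockdown effect could be read at this depth. In TET TKO there were 30 and 19 reads against 12 and 7 (log2 -0.94, SE 0.56, adjusted p = 0.23). All 6 endothelial markers listed were summed, 5 of which had enough reads to test. The sum was 13.7 to 19.9 CPM in WT shEmpty and 4.53 to 5.61 in WT shKap1. Of the defining markers, Tek was there at means of 12.6 and 2.43 CPM and Cdh5 at 10 and 24 reads over 3 libraries. The sum was 24.9 to 27.7 and 23.4 to 26.4 CPM in DNMT TKO, and 14.3 to 14.5 and 43.7 to 48.2 in TET TKO. In TET TKO the markers went different ways, since Tie1 rose from 2.28 to 41.8 CPM while Tek fell from 9.55 to 2.98 and Cd34 from 2.24 to 0.827 (Tie1 and Cd34 were picked after their values were seen). Cd34 fell in WT too, from 2.77 to 1.08 CPM. The part of other cell types in the Sox7 value was not tested.

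Dab2 (ENSMUSG00000022150, chromosome 15, 6249788 to 6390712, forward strand) moved in opposite directions in WT and DNMT TKO cells. The WT libraries had 77, 172 and 207 reads under shEmpty and 39, 29 and 32 under shKap1. The DNMT TKO libraries had 31, 34 and 25 reads under shEmpty and 93, 43 and 49 under shKap1, and the TET TKO libraries 65 and 56 against 54 and 55. The WT groups were fully apart with shKap1 below, and the DNMT TKO groups fully apart with shKap1 above. Dab2 fell by 1.84 on the log2 scale in WT (SE 0.31, adjusted p = 8.7e-05) and rose by 1.16 in DNMT TKO (SE 0.33, adjusted p = 0.01). The DNMT TKO rise rested on shKap1 replicate 1, at 4.47 CPM against 2.02 and 1.82 in the other two, since without it the value was 0.65 and did not pass, and without shEmpty replicate 3 it was 1.01 and did not pass either. The summed level of 12 feeder fibroblast markers, 9 of which had enough reads to test, was also fully apart in DNMT TKO. It was 9.85 to 13.3 CPM under shEmpty and 24.6 to 25.9 under shKap1, and its part in the Dab2 value was not tested. In TET TKO the difference was 0.27 (SE 0.38, adjusted p = 0.64). A second gene identifier on the same strand overlaps exons of Dab2 and had 0 reads. How reads in the shared exons were assigned was not checked, so this 0 does not show that Dab2 lost none.

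Gata4 (ENSMUSG00000021944, chromosome 14, 63817759 to 63890529, reverse strand), a zinc finger factor downstream of Gata6, had the most reads of the 10 genes, 2377 in all. Its WT libraries held 52, 185 and 197 reads under shEmpty and 136, 218 and 196 under shKap1. Every shKap1 library was above every shEmpty library in CPM, but the difference of 0.69 (SE 0.26, adjusted p = 0.04) was under 2-fold. WT shEmpty replicate 1 was at 2.89 CPM, against 6.58 and 6.97 in replicates 2 and 3. Without 1 library the WT value ranged from 0.41 to 0.89. Gata4 differed by 0.34 in DNMT TKO (adjusted p = 0.38) and 0.26 in TET TKO (adjusted p = 0.58). Pdgfra (ENSMUSG00000029231, chromosome 5, 75548316 to 75594229, forward strand) showed the same small shift in WT, with 30, 40 and 46 reads against 43, 56 and 39 (log2 0.53, SE 0.19, adjusted p = 0.034), and in DNMT TKO, with 37, 54 and 68 reads against 74, 81 and 86 (log2 0.72, SE 0.18, adjusted p = 0.004). Both Pdgfra differences were under 2-fold, and in TET TKO the value was -0.03 (SE 0.22, adjusted p = 0.95).

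Gata6 (ENSMUSG00000005836, chromosome 18, 11052508 to 11085633, forward strand), the factor at the head of the primitive endoderm cascade, had between 8 and 33 reads per library. The differences were -0.28 in WT (SE 0.34, adjusted p = 0.54), 0.09 in DNMT TKO (SE 0.27, adjusted p = 0.84) and -0.76 in TET TKO (SE 0.36, adjusted p = 0.13), where 33 and 22 reads stood against 12 and 12. An antisense gene, 1010001N08Rik, overlaps Gata6, and reads were counted by strand. Over the 6 primitive endoderm genes the summed level was 13.6 to 18.5 CPM in WT shEmpty and 15.1 to 17.1 in WT shKap1, which overlapped, 7.36 to 9.87 and 12.2 to 15.9 in DNMT TKO, and 14.4 to 16.4 and 17.4 to 17.7 in TET TKO.

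Whether the knockdown effect itself differed between genotypes was tested as an interaction in the same edgeR fit. Between DNMT TKO and WT it differed for 3 of the 10 genes, higher for Gsc and Dab2 and lower for T, where 4.66% of all genes were higher and 2.48% lower. Between TET TKO and WT it differed for 1, Dab2, which was higher, where 2.08% of all genes were higher and 2.13% lower. None was lower in TET TKO by edgeR, limma-voom or DESeq2, and 1 (Sox17, -1.32) was lower by edgeR at an unadjusted p under 0.05. These comparisons share the WT libraries, and the weaker loss of Trim28 in DNMT TKO than in WT (a difference of 1.28 in log2 knockdown, SE 0.21, adjusted p = 8e-04) stands beside them. Its part in the differences was not tested.

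The Dab2 effect was 3.01 log2 units higher in DNMT TKO than in WT (SE 0.45, adjusted p = 0.00014) and 2.12 higher in TET TKO than in WT (SE 0.49, adjusted p = 0.01). The second of these was 2.02 and no longer passed without TET TKO shKap1 replicate 2. The T effect was 1.25 log2 units lower in DNMT TKO (SE 0.37, adjusted p = 0.023), and was -1.13 without DNMT TKO shEmpty replicate 2 and -0.96 without WT shEmpty replicate 3, neither of which passed. The Gsc effect was 1.40 higher in DNMT TKO (SE 0.43, adjusted p = 0.029), that is a smaller fall, but missed the threshold with limma-voom (1.33) and in 7 of the 16 fits that left out 1 library, with values from 1.19 to 1.47 (DNMT TKO shKap1 replicate 2 or 3, WT shEmpty replicate 2 or 3, or any of the 3 WT shKap1 libraries). For Sox17 the difference in effect was -0.60 (SE 0.51, adjusted p = 0.48) in DNMT TKO and -1.32 (SE 0.54, adjusted p = 0.14) in TET TKO, and neither passed.

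Without knockdown, DNMT TKO cells had more T, Mixl1 and Gsc and less Sox7 and Dab2 than WT cells, 3 genes higher and 2 lower of the 10, where 8.23% of all genes were higher and 8.05% lower. TET TKO cells had more Mixl1, Gsc and Sox17 and less T, Sox7 and Dab2, 3 higher and 3 lower, where 5.66% of all genes were higher and 4.80% lower. Of the mesendoderm factors, T was 1.78 log2 units higher in DNMT TKO (SE 0.23, adjusted p = 5.6e-06) and 1.55 lower in TET TKO (log2 -1.55, SE 0.31, adjusted p = 0.0011), so that the libraries of the 3 genotypes did not overlap, at 7.57 to 11.6 CPM in DNMT TKO, 1.70 to 4.05 in WT and 0.939 to 1.02 in TET TKO. Gsc and Mixl1 were higher in both mutants. The Gsc difference was 1.65 in DNMT TKO (SE 0.23, adjusted p = 1.5e-05) and 1.31 in TET TKO (SE 0.26, adjusted p = 0.00081), and that of Mixl1 was 1.38 (SE 0.29, adjusted p = 7e-04) and 1.30 (SE 0.31, adjusted p = 0.0041).

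**Figure D3:**
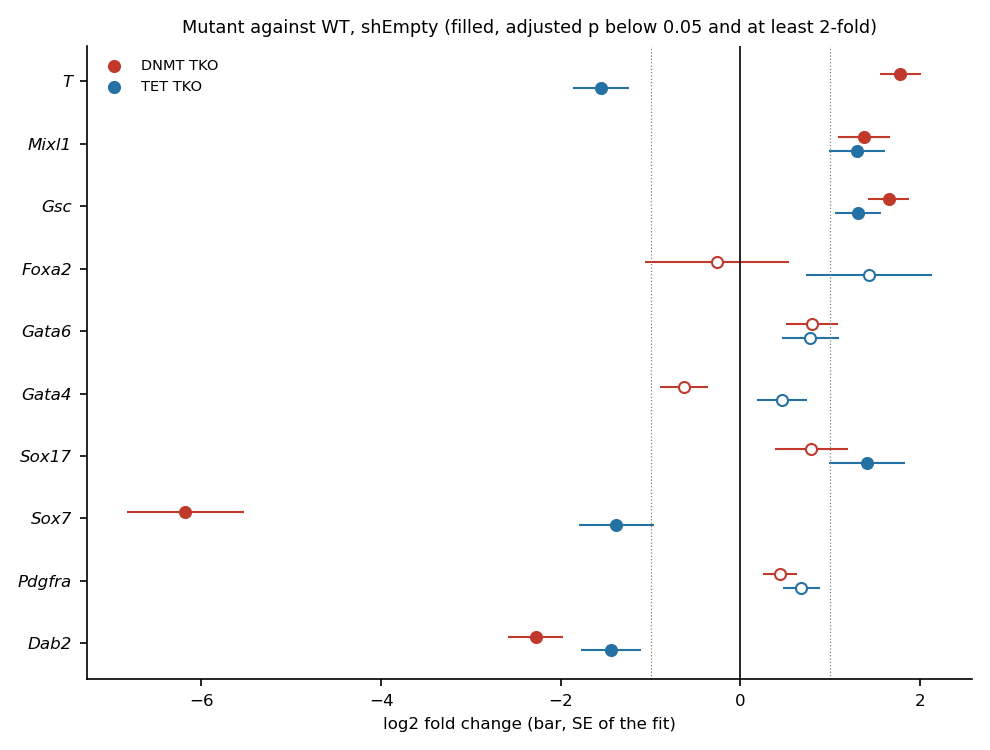
Log2 difference of each gene between mutant and WT cells with shEmpty (x axis; dotted lines at 2-fold), with the SE of the edgeR fit as a bar and filled points for an adjusted p below 0.05 with at least a 2-fold difference. T lies at 1.78 in DNMT TKO and at -1.55 in TET TKO, Gsc and Mixl1 lie above 1 in both, and Dab2 and Sox7 lie below -1 in both. The DNMT TKO value of Sox7 comes from 2 reads in 3 libraries and is no bound.

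Of the primitive endoderm genes, Sox7 had 163 reads in the 3 WT shEmpty libraries and 2 in those of DNMT TKO, a WT over DNMT TKO ratio of 81.7 with a 95% counting interval of 22.3 to 681, and it was lower in TET TKO by 1.38 log2 units (log2 -1.38, SE 0.42, adjusted p = 0.02). The TET TKO value of Sox7 missed the threshold with DESeq2 (-1.42), in a fit of the 2 groups alone (-1.38), and without WT shEmpty replicate 1 (-0.92) or TET TKO shEmpty replicate 1 (-1.69) or 2 (-1.14). Dab2 was lower by 2.28 in DNMT TKO (log2 -2.28, SE 0.31, adjusted p = 1.1e-05) and by 1.44 in TET TKO (log2 -1.44, SE 0.33, adjusted p = 0.0031), and its WT libraries did not overlap those of either mutant. Sox17 was higher by 1.41 in TET TKO (SE 0.42, adjusted p = 0.018), a call lost without TET TKO shEmpty replicate 1 (1.43) or 2 (1.38), and its difference in DNMT TKO was 0.79 (SE 0.41, adjusted p = 0.13). Gata6 and Pdgfra lay above WT in both mutants by less than 2-fold, at 0.80 and 0.44 in DNMT TKO and 0.78 and 0.68 in TET TKO, and without WT shEmpty replicate 3 the Gata6 values were 1.12 and 1.1 and passed. Gata4 was at -0.63 in DNMT TKO (SE 0.27, adjusted p = 0.073) and 0.46 in TET TKO (adjusted p = 0.26).

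Other genes of the same programmes showed no single direction. Of 14 further mesendoderm genes tested, out of 19 listed, 3 rose and 2 fell on knockdown in WT, 1 rose and 3 fell in DNMT TKO, and 2 rose and 1 fell in TET TKO, with median log2 changes of -0.10, 0.27 and -0.16. Over the 18 matched genes the summed level was 46 to 52.5 CPM under shEmpty and 39.4 to 44.6 under shKap1 in WT. It was 36.3 to 41.6 and 42.4 to 47.9 in DNMT TKO, and 47.9 to 49.3 and 58.7 in both libraries in TET TKO. Hhex was the largest part of the sum in DNMT TKO, with group means of 14.8 and 15.8 CPM. Snai1 had the largest gain in CPM between hairpins in each mutant. Its group means were 4.59 and 8.48 CPM in DNMT TKO and 5.6 and 20.3 in TET TKO. Eomes, not among the genes that fell, was at 20.2 and 9.86 CPM in WT. Hhex and Eomes were picked after their values were seen. Mesp2, a basic helix-loop-helix factor of somite segmentation, rose in all 3 genotypes, by 1.51 in WT (SE 0.40, adjusted p = 0.0048), 2.04 in DNMT TKO and 3.20 in TET TKO. Snai1, a zinc finger repressor of epithelial genes, rose by 1.18 in WT (SE 0.13, adjusted p = 6.4e-07) and 1.86 in TET TKO. Kdr, the VEGF receptor of blood and endothelial progenitors, fell by 1.83 in WT (SE 0.39, adjusted p = 0.00079) and 1.33 in DNMT TKO. Hand1 rose in WT from 4 to 20 reads, and Wnt3 fell in DNMT TKO from 22 to 7 reads, each summed over 3 libraries.

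Of 19 further primitive endoderm genes tested, out of 22 listed, 3 rose and 4 fell in WT and 1 rose and 3 fell in DNMT TKO. In TET TKO 5 fell and none rose by edgeR, limma-voom or DESeq2, with 1 higher at an unadjusted p under 0.05. Hnf4a, a nuclear receptor of visceral endoderm, fell in all 3, from 155 to 4 reads in WT (log2 -4.84, SE 0.50, adjusted p = 5.9e-07), from 190 to 67 in DNMT TKO (log2 -1.40, SE 0.30, adjusted p = 0.0015) and from 46 to 0 in TET TKO, where the adjusted p was 0.0001. Lama1, which encodes the laminin chain of the basement membrane that these cells lay down, fell by 2.87 in WT (SE 0.11, adjusted p = 5.6e-12), 1.52 in DNMT TKO and 2.69 in TET TKO. Apoe, a lipid carrier, fell by 2.15 in WT (SE 0.13, adjusted p = 1.4e-08), 1.18 in DNMT TKO and 2.43 in TET TKO. Against this, Thbd, the thrombomodulin of parietal endoderm, rose by 1.98 in WT (SE 0.45, adjusted p = 0.0016) and 2.32 in DNMT TKO, and Srgn and Col4a2 rose in WT by 1.40 and 1.18. The summed level of the list was 2902.4 to 3073.8 CPM in WT shEmpty and 1618.4 to 1689.7 in WT shKap1, and a few abundant genes set it. Lamc1, another laminin chain, was at 934 and 267 CPM and Apoe at 575 and 129, while Sparc was at 308 and 289 and Nid1 at 339 and 354, neither of which passed the test. Lamc1, Sparc and Nid1 were picked after their values were seen.

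Ligands, receptors and cofactors of the 10 genes gave 1 rise and 2 falls among the 9 tested in WT and 1 of each in DNMT TKO. In TET TKO 2 fell and none rose by edgeR, limma-voom or DESeq2, with 1 higher at an unadjusted p under 0.05. Pdgfa, a ligand of the receptor that Pdgfra encodes, fell by 1.38 in WT (SE 0.14, adjusted p = 1.6e-06), and Pdgfb fell in all 3 genotypes, by 2.58, 1.19 and 1.49. Pdgfc fell by 1.05 in TET TKO. Fgfr2, an FGF receptor of primitive endoderm, rose by 1.24 in WT and 1.46 in DNMT TKO. Of the 10 paralogs tested, out of 11 listed, 3 rose and 3 fell in WT, 2 and 2 in DNMT TKO, and 1 and 3 in TET TKO. Foxa1 rose in all 3 genotypes, by 2.15, 1.56 and 1.88, while Foxa3 fell by 1.21, 1.33 and 2.06 and Gata2 by 1.02, 1.77 and 2.92. Gata3 rose by 1.13 in WT and 1.70 in DNMT TKO, Dab1 fell by 1.65 in WT and Pdgfrb by 1.66 in TET TKO. Tbx19, a T-box relative of T, went from 0 to 13 reads over the 3 WT libraries.

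Markers of other cell types moved as well. All 6 genes of the cleavage-stage embryo that were measured (Zscan4c, Zfp352 and others) rose in each genotype, and their summed level went from 12.7 to 23.9 CPM to 203 to 225 in WT, from 5.84 to 18.4 to 61.2 to 136 in DNMT TKO, and from 8.64 to 10.3 to 605 to 624 in TET TKO. Of 6 trophoblast genes, 4 rose and 1 fell in WT (5.44 to 7.04 against 14.3 to 25.5 CPM in sum), with the defining markers Cdx2 at 114 and 86 reads and Elf5 at 17 and 1. In DNMT TKO the trophoblast sum was 7.15 to 9.45 and 6.58 to 9.75 CPM, with Cdx2 falling from 430 to 72 reads, and in TET TKO it was 6.46 to 6.77 and 10 to 10.8. Of 7 neuroectoderm genes, 3 rose and 1 fell in WT, 4 rose in DNMT TKO and 1 rose in TET TKO. In WT, Pax6 went from 1.16 to 7.61 CPM and Tubb3 from 101 to 34.1. The list there summed to 145 to 149 CPM under shEmpty and 141 to 157 under shKap1, with overlap, as in DNMT TKO (144 to 163 and 137 to 180). In TET TKO it summed to 152 to 157 and 138 to 152 CPM, and Pax6 went from 0.582 to 3.2. Feeder fibroblast genes were at 9.83 to 16 CPM in sum in WT shEmpty and 13.8 to 18.9 in WT shKap1. Of the 9 tested, 2 rose and 1 fell. The defining markers went different ways in WT, Postn with 3 and 0 reads, Col1a1 with 185 and 61 and Col3a1 with 1 and 11. In DNMT TKO, 2 of the 9 rose and none fell by edgeR (0 also at an unadjusted p under 0.05, with limma-voom and with DESeq2). The defining markers there were Col1a1 at 2.70 and 5.76 CPM, Col3a1 with 1 and 8 reads and Postn with 7 and 7. Fbn1, which is not a defining marker, was at 2.79 and 10.6 CPM. The sums given with Dab2 did not overlap. In TET TKO the sums were 16.9 to 17.5 and 15.9 to 16.7 CPM. The part of these cell types in the values of the 10 genes was not tested.

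The genes whose 6 group means followed each member most closely were found among the 16642 genes with at least 100 reads, by the root mean square difference in centred log2 CPM over the 6 groups, for the 9 members with as many reads. T lay closest to Cdx2 (0.31) and Gm6047 (0.42), beside its own range of 3.51 between groups. Gsc lay closest to Crtac1 (0.19) and Prrt4 (0.24), with a range of 3.90. Sox7 lay closest to Ipp (0.22) and Gm16835 (0.23), and Dab2 to D930028M14Rik and Scn4a (both 0.28). The neighbours were Pxmp2 (0.14) and Npl (0.16) for Mixl1, Atoh1 (0.13) and Gm1141 (0.15) for Sox17, Bcl2 (0.10) and Zfp942 (0.11) for Gata4, Adamts7 (0.07) and Tnip2 (0.10) for Gata6, and Gm3452 (0.07) and Fam38b (0.09) for Pdgfra. Among the members themselves the closest pairs were Gata6 with Pdgfra (0.37) and Mixl1 with Gata6 (0.43).

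Most of these genes carried the bivalent pair of marks at their starts. Within 1 kb of the annotated start, 9 of the 10 had an H3K27me3 region in both replicates, against 16.1% of the 20321 genes tested, 7 had an H3K4me3 region, against 69.3%, and 7 had both, against 13.3%. Dab2 was the 1 gene with neither, a class that held 28% of genes. The H3K4me3 regions at the starts had their highest scores at Gsc (1178.3 and 1859.16 in replicates 1 and 2, as the peak caller MACS gave them), Mixl1 (998.56 and 1278.19), T (721.16 and 1300.43) and Sox7 (699.26 and 1225.11), and lower ones at Gata6 (272.01 and 566.82), Foxa2 (245.89 and 349.55) and Pdgfra (135.73 and 287.46). Only the first 4 were above the median score of their list in both replicates. At Foxa2 and Pdgfra the H3K4me3 region lay downstream of the start and did not cover it, leaving 5 genes with both marks on the start base itself, against 8.61% of genes.

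Sox17, Gata4 and Dab2 were the 3 genes without an H3K4me3 region at the start in each replicate. Sox17 had a region there in replicate 2 alone (score 135.67), and regions of score 1344.94 and 2748.55 began 2461 and 2415 bases downstream. Gata4 and Dab2 were marked at other transcript starts, which were looked up after their values were seen. The starts of Gata4 that lie 26421 to 26444 bases inside the gene carried both marks. Those of Dab2 that lie 86810 to 86991 bases inside the gene, where the CG-rich promoter shown above lies, carried H3K4me3 in both replicates (scores 107.14 and 444.59) and no H3K27me3, while the CG-poor promoter at the gene start carried neither. With any annotated start counted, 9 genes had H3K4me3, 9 had H3K27me3 and 8 had both, against 72.0%, 18.1% and 15.4% of genes. On the T and Gsc promoters shown above, both marks covered all 300 bases in both replicates.

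H3K27me3 regions at the 9 starts were 2399 to 15599 bases long for the longest per gene and replicate, beside medians of 2999 and 2599 over the 28349 and 33126 regions of the 2 lists. Over all 2708 genes with both marks at the start, 19.3% rose and 12.4% fell on knockdown in WT, 18.1% and 5.32% in DNMT TKO and 11.7% and 9.49% in TET TKO. The corresponding shares over the 11370 genes with H3K4me3 alone were 5.26% and 4.58%, 4.29% and 1.45%, and 3.66% and 2.70%. They were 22.5% and 10.2%, 19.1% and 5.53%, and 19.3% and 7.84% over the 561 genes with H3K27me3 alone, and 16.8% and 7.30%, 16.9% and 2.66%, and 14% and 5.26% over the 5682 genes with neither mark, so the shares that rose were above those of H3K4me3 alone in each of the other classes. Without knockdown, 15% of the genes with both marks were higher and 14.7% lower in DNMT TKO than in WT.

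None of the 10 genes had a KAP1 region on its body or within 1 kb of it, where 16.6% of genes tested had one, and none had an H3K9me3 region there, where 8.95% had one. The nearest KAP1 region to a start was 11.8 kb away for Sox7, 23.5 kb for Dab2 and 25.7 kb for Gsc, and 151.1 kb for T and 312.2 kb for Foxa2. The median distance was 64.2 kb, against 51.4 kb over all genes. For H3K9me3 the distances ran from 55.3 kb at Sox17 to 369.5 kb at Gata4, with a median of 182.0 kb against 104.8 kb.

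5hmC was read in 1 library per hairpin in WT cells, as reads in the mark regions over those of the input, with a pseudocount of 1 read, so the values have no replicate check and their 95% intervals cover counting error only. In the H3K27me3 regions at 9 starts the median log2 ratio was -0.72 under shEmpty and -0.77 under shKap1, beside -0.69 and -0.40 over all 19072 such regions with at least 10 input reads. In the H3K4me3 regions at 7 starts it was -1.32 and -1.29, beside -1.51 and -1.11 over 27830 regions. The lowest H3K27me3 value under shEmpty was that of Gata6 at -1.92 (-2.36 to -1.48) and the highest that of Gata4 at 0.27 (-0.33 to 0.87). The H3K4me3 region of T, with 9 5hmC reads, was at -2.25 (-3.30 to -1.21) and that of Sox7, with 32, at -0.05 (-0.85 to 0.75).

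**Figure D4:**
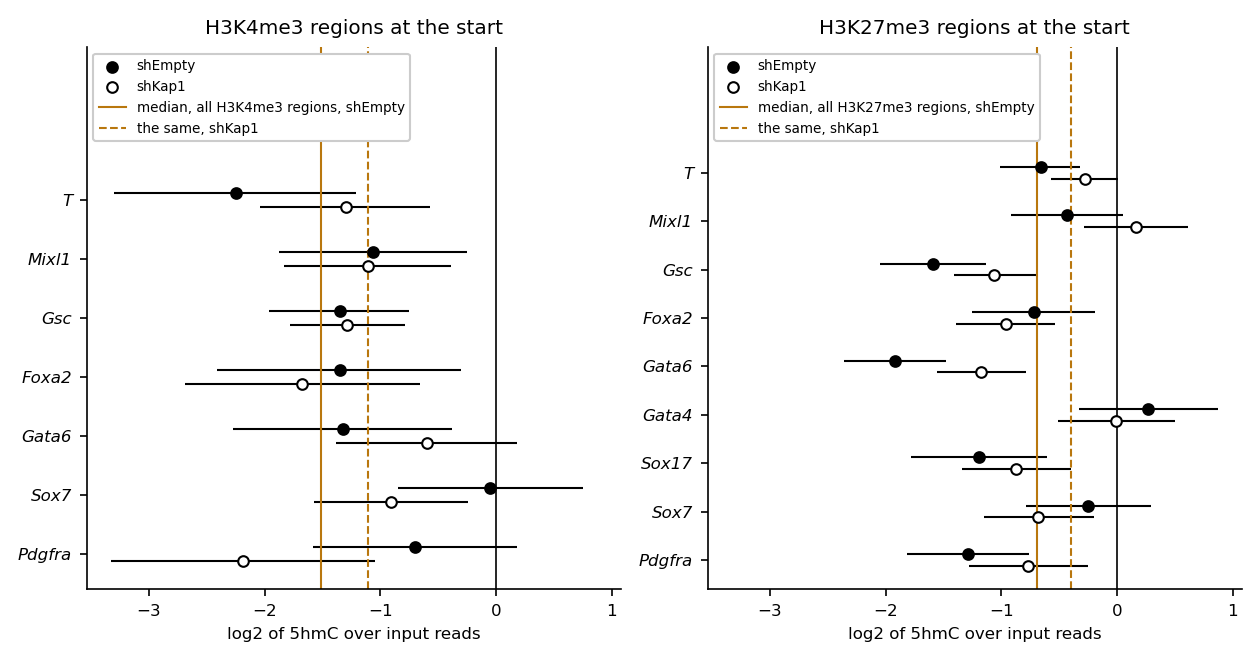
Log2 ratio of 5hmC to input reads (x axis) in the H3K4me3 regions (left) and H3K27me3 regions (right) at the starts, in WT cells with shEmpty (filled) and shKap1 (open), 1 library each, with 95% counting intervals. Orange lines give the medians over all regions of the mark, -1.51 and -1.11 on the left and -0.69 and -0.40 on the right. The intervals of the hairpins overlap for all 16 values.

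Between the hairpins the change in log2 ratio was above 0 at 3 of 7 H3K4me3 starts and 6 of 9 H3K27me3 starts, with medians of -0.05 and 0.38, beside 71.5% and 68.6% of all regions and medians of 0.39 and 0.27. The interval of the change excluded 0 for 2 of these 16 values. Over all regions it lay above 0 for 12.4% and below 0 for 1.04% with H3K4me3, and for 14.4% and 2.13% with H3K27me3. It was above 0 for the H3K27me3 region of Gata6 (0.74, 0.16 to 1.33) and below 0 for the H3K4me3 region of Pdgfra (-1.49, -2.93 to -0.05), which had 20 5hmC reads under shEmpty and 7 under shKap1. With library totals from the H3K4me3 regions the medians became -0.44 and 0.00, with 2 of 7 and 4 of 9 above 0, so the direction of the H3K27me3 median rested on the scaling. The Gata6 interval then held 0 (0.35, -0.23 to 0.94), as it did without the largest region in the totals (0.37, -0.21 to 0.96), while the Pdgfra interval stayed below 0 (-1.88, -3.32 to -0.44, and -1.86, -3.30 to -0.42) and both intervals of Sox7 came to lie below 0 (with the H3K4me3 totals, -1.25, -2.29 to -0.21 over H3K4me3 and -0.82, -1.54 to -0.10 over H3K27me3). The values over all regions rested on the scaling too. With the H3K4me3 totals, the whole interval lay above 0 for 3.94% and below 0 for 4.36% of all H3K4me3 regions. For all H3K27me3 regions these shares were 3.08% and 9.41%. Without the largest region in the totals they were 4.18% and 4.13%, and 3.31% and 8.84%. Leaving that region out took the 5hmC total from 7824611 to 5018162 reads under shEmpty and from 8817570 to 6832384 under shKap1.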

How the data were processed

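RNA-seq libraries (stranded, poly(A), single-end) were aligned by the authors to mm9 with HISAT2, and the deposited values are raw read counts per gene from featureCounts (reverse strand, mapping quality of at least 10, exons summed per gene), with no normalization. The submitters' processing notes name HISAT2 2.0.1, Bowtie2 2.2.1, featureCounts 1.5.1, MACS 1.4, SICER 1.1 and bedtools 2.25. H3K4me3 regions, deposited with a MACS score per region, and H3K27me3 regions, deposited with a whole-number score, were called by the authors in each replicate against its own input. The study's methods name MACS as caller, or SICER for H3K9me3, and do not name the caller of the H3K27me3 regions. For 5hmC the authors deposited read counts over fixed region sets.

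All 16 RNA libraries entered 1 fit of 6 group means, with no replicate block. The 20321 genes whose reads summed to 16 or more over all libraries entered the test in edgeR 4.0.16 (TMM scaling, robust quasi-likelihood F test, R 4.3.3), and p-values were adjusted by the Benjamini-Hochberg method over all of them. Genes were called at an adjusted p below 0.05 with an absolute log2 change of 1 or more. Knockdown was compared within each genotype, its effect between genotypes as an interaction, and genotypes without knockdown. The fit was tested on simulated counts, and the outcome is not reported here. RPKM used exon lengths from the deposited tables. Depth was 18108431 to 29373696 reads on genes per library, so 1 read is less than 0.1 CPM, and counting intervals cover counting error only.

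A mark was counted at a start where a region of each replicate overlapped the window of 1 kb to each side by at least 1 bp. Log2 ratios of 5hmC over input were scaled to the reads in all region sets with a pseudocount of 1 read. The 10 genes and all lists were chosen with earlier results of these data known. All 10 are named in every comparison, and of the partner lists the 3 largest rises and 3 largest falls among called genes of each knockdown, of which 1 gene is not reported here. Foxf1, Rhox5, Tfcp2l1, Tfap2c, Tfap2a, Sox1, Tcstv1 and Tcstv3 were not analysed here, and neither were the repeat counts and the 5hmC libraries of replicate 2, whose labels and file names give different roles. The labels number replicates alike in all groups. The deviations from group means of same-numbered libraries correlated at 0.118 to 0.274 between the WT hairpins. They correlated at 0.135 to 0.317 between DNMT TKO and WT shEmpty, so there the numbers may pair the samples. The values were 0.078 to 0.33 between the DNMT TKO hairpins, where not every pair was over 0.1. They lay between 0.024 and 0.177 for the other pairs of a DNMT TKO and a WT group, and at about 0 with TET TKO. Whether replicates 2 and 3 pair by number, apart from replicate 1, was not tested.

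Alternatives were RLE scaling, no read filter, filterByExpr, limma-voom (limma 3.58.1), the DESeq2 Wald test (DESeq2 1.42.0), a replicate block, no fold threshold, only the groups compared, and each library left out. For marks, other windows and scores were tried, and for 5hmC other scalings, pseudocounts and input minimums. Python 3.11.15 with pandas 2.3.3, numpy 2.4.6, scipy 1.17.1 and matplotlib 3.10.9 was used for the rest.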

Additional observations from a re-analysis of the deposited data

Results flagged for a closer look

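Each of these differences in knockdown effect between a mutant and WT passed the interaction test in edgeR (adjusted p below 0.05 and at least 2-fold). For T the effect in DNMT TKO minus that in WT was -1.25 on the log2 scale, T falling by 2.29 in DNMT TKO and 1.04 in WT. For Gsc it was 1.40, with falls of 1.16 and 2.56. For Dab2 it was 3.01, with a rise of 1.16 in DNMT TKO and a fall of 1.84 in WT, and in TET TKO it was 2.12, where Dab2 was at 0.27. The same WT libraries serve in all of these, and Trim28 was reduced less in DNMT TKO than in WT. The part of that in the differences was not tested.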

How the results depend on the processing

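Each of the 70 RNA values of the 10 genes was computed under 24 alternatives, 16 of which left out 1 library (23 for Sox7 on knockdown in DNMT TKO, which had too few reads in a fit of only the groups compared), and 44 values kept their direction and their side of the threshold under each. Of all these fits 1617 kept both, 33 lost a call, 12 gained 1 and 17 changed sign. The number of genes called on knockdown in TET TKO was 2, and 1 with RLE scaling, filterByExpr and DESeq2 and without either shEmpty library or shKap1 replicate 1, since Mixl1 was then at or under 2-fold or did not pass. It was 3 with limma-voom and without shKap1 replicate 2, where Foxa2 passed as well, and 2 with only the groups compared, where Foxa2 passed and Mixl1 (-0.98) did not. Without 1 library the calls in DNMT TKO ranged from 2 to 4 (2 without shKap1 replicate 1), those for the effect in DNMT TKO minus WT from 1 to 3 (1 without WT shEmpty replicate 3) and those for TET TKO minus WT from 0 to 1 (0 without TET TKO shKap1 replicate 2). Members with H3K4me3 at the start, and those with both marks, went from 7 to 4 with regions above the median score of their list, since scores were lower at Foxa2, Gata6 and Pdgfra. Changes of sign concerned values that passed no test. Without 1 library, the knockdown value in WT ranged from -0.56 to 0.04 for Gata6 and from -0.38 to 1.06 for Foxa2, that in DNMT TKO from -0.31 to 0.69 for Sox7, -0.06 to 0.20 for Gata6 and -1.31 to 0.07 for Foxa2, and that in TET TKO from -0.10 to 0.08 for Pdgfra (0.01 with only the groups compared). The effect in DNMT TKO minus WT ranged from -1.78 to 0.08 for Foxa2, that in TET TKO minus WT from -0.52 to 0.45 for Mixl1, and Foxa2 in DNMT TKO minus WT without knockdown from -0.71 to 0.35. The cause was not tested. Where 1 TET TKO library was left out, the lone library was assumed to vary like the other groups. With the replicate block 77 of 77 results kept direction and side of the threshold (T on knockdown in WT was at -1.03). Over all genes tested, 2200 rose and 1329 fell in WT, 2043 and 491 in DNMT TKO and 1635 and 907 in TET TKO, and with no fold threshold these were 4672 and 4605, 3999 and 3174, and 3108 and 3070, so the split between rises and falls became more even. For the effect in DNMT TKO minus WT the counts went from 946 higher and 504 lower to 2157 and 1580, for that in TET TKO minus WT from 423 and 432 to 942 and 1028, and without knockdown from 1673 and 1635 to 4164 and 4701 in DNMT TKO and from 1151 and 976 to 2865 and 2656 in TET TKO. Without TET TKO shEmpty replicate 2 or either shKap1 library, the effect in TET TKO minus WT was called for 265 to 276 genes higher and 266 to 281 lower. All 5hmC values kept within their counting intervals, although under other library totals that of Gata6 over H3K27me3 held 0 and those of Sox7 did not. Low counts limit Foxa2 and, in DNMT TKO, Sox7.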
